A study of Mus musculus with 19 samples.

Results

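The transcripts described here encode the parts of the primary cilium and of intraflagellar transport, the traffic that builds it. The set was named by gene symbol from known function. The rule itself uses no measured value, but the members were chosen with earlier results of these data known. All 47 symbols were found among the 29861 rows of the deposited table. Transcript levels were measured by RNA sequencing in 19 lines of mouse pancreatic duct organoids, cultures that form hollow epithelial spheres in a basement membrane gel. Of these, 7 lines came from ducts of wild-type mice with a normal pancreas. A further 6 came from ducts of Pdx1-Cre mice whose pancreas held pancreatic intraepithelial neoplasia (PanIN), the precursor lesion of ductal adenocarcinoma. The other 6 came from adenocarcinomas of mice that carried Trp53LSL-R172H, a Cre-activated mutant allele of the tumor suppressor p53, with Pdx1-Cre. All mice had the C57B6/J background, and Pdx1-Cre acts in the cells that form the pancreatic epithelium. One medium served all lines; it held the TGF-beta receptor inhibitor A83-01 beside noggin, R-spondin, gastrin, EGF and FGF-10. The labels do not say whether lines shared a mouse, so the p-values reflect only how far lines of a group differ, which may in part be technical.

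The primary cilium is a single, non-motile projection built on a centriole of a cell that is not dividing, and it is taken apart before the cell divides. Kinesin-2 carries IFT-B and IFT-A particles with their cargo to the tip, dynein-2 carries them back, the BBSome moves membrane proteins out, and the transition zone at the base controls entry. In the pancreas, normal duct cells bear primary cilia, and loss of the cilium or of polycystins and fibrocystin is known to dilate ducts into cysts. Nothing here counted cilia: the values are RNA levels, and in cultures of many cells fewer ciliated cells and less RNA per cell cannot be told apart.

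Many ciliary genes carry an X-box, the site bound by RFX transcription factors, near their start, so the members' promoter windows (RefSeq, GRCm38.p6, 250 bases before to 50 after the start of each gene) were searched. Windows were at hand for 43 of the 47 members; Tmem67, Ift122, Ift80 and Ift81 had none in the table used. The paired form, GTNNCC and GGNAAC parted by 2 bases, was found on either strand in 9 of the 43 members, or 20.9%, and in 1.49% of all 27025 genes with a window (2.02% of the 8228 that were also tested below). The single form GTTGCC, on either strand, was found in 18 members, or 41.9%, and in 14.1% of all genes (15.03% of those tested). The forms overlap, and 8 members held both. Windows are shown of 3 members with the paired form and of 4 members with the single form that were among the 6 smallest p between tumor and normal lines, written along the gene's own strand with the match in capitals.
Ift57: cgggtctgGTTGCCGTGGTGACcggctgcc
Tctn2: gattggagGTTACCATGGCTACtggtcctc
Mks1: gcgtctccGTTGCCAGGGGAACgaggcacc
Kif3a: caccccgcaggcGTTGCCccagtctagcgt
Wdr35: gatgcgactgggcggcggtgGTTGCCaggc
Bbs5: gatgtcgtgacaaagccggcgcGTTGCCtt
Tctn3: aggctcccagcgGTTGCCaggtaacgggaa
The first 3 hold the paired form, at chr16:49699199-49699228 (plus strand), chr5:124598679-124598708 (plus) and chr11:87853183-87853212 (plus). In Ift57 and Tctn2 the paired form reads on the strand opposite to the one written, and in Mks1 on the written strand. The other 4 hold the single form, at chr11:53567259-53567288 (plus), chr12:8974021-8974050 (plus), chr2:69647191-69647220 (plus) and chr19:40612354-40612383 (minus). A match is a run of letters and not a measured binding site, and a window without one says only that these letters are not in it.

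Levels are given as TPM (transcript abundance scaled for transcript length and to 1 total per line), which keeps no read depth, so no counting interval can be given. Averaged over all lines, 8 members lay under 5 TPM, 28 between 5 and 20, and 11 above 20. Ift20, which links the Golgi to the IFT-B particle, was the most abundant with a mean of 62.4 TPM, ahead of the small GTPase Arl3 with 58.0 and the transition zone protein B9d1 with 42.8. Members were tested with all other genes on log2(TPM + 1) in limma, and a change was called at a Benjamini-Hochberg adjusted p under 0.05 over the 12500 genes that reached 1 TPM in at least 6 lines. Of the 47 members, 46 passed that filter. The one that did not, Kif7, a kinesin of the ciliary tip that acts in hedgehog signaling, ranged from 0.16 to 0.93 TPM.

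The lines carried the RNA of duct epithelium. The 10 ductal markers summed to 10206 to 15354 TPM in normal, 7824 to 12343 in PanIN and 7320 to 9222 in tumor lines. In this sum every tumor line lay below every normal line. Krt8, Krt18 and Spp1 made up most of it, with means of 3393, 3246 and 3282 TPM in normal lines. Of the 10 markers, 3 were called lower and 0 higher in tumor than normal lines, against 14.4% and 17.8% of all genes. The estimates of 3 markers were above 0, among them Krt7, with means of 552 TPM in normal and 755 in tumor lines. Acinar markers summed to at most 2.43 TPM, and endocrine, fibroblast and endothelial markers to at most 0.32. Leukocyte markers summed to 4.15 to 8.23 TPM in normal, 2.72 to 3.61 in PanIN and 1.46 to 3.85 in tumor lines, while Ptprc, which defines leukocytes, stayed near 0 (at most 0.09 TPM). The library identifiers in the table's column names fall into 3 series, each of which holds lines of all 3 groups. A set of 11 rows for which the authors gave no comparison took 16.3% and 18.2% of all TPM in tumor lines 5 and 8, against 21.1% to 28.6% in the other 17 lines, so the results are also given without those lines.

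**Figure D1:**
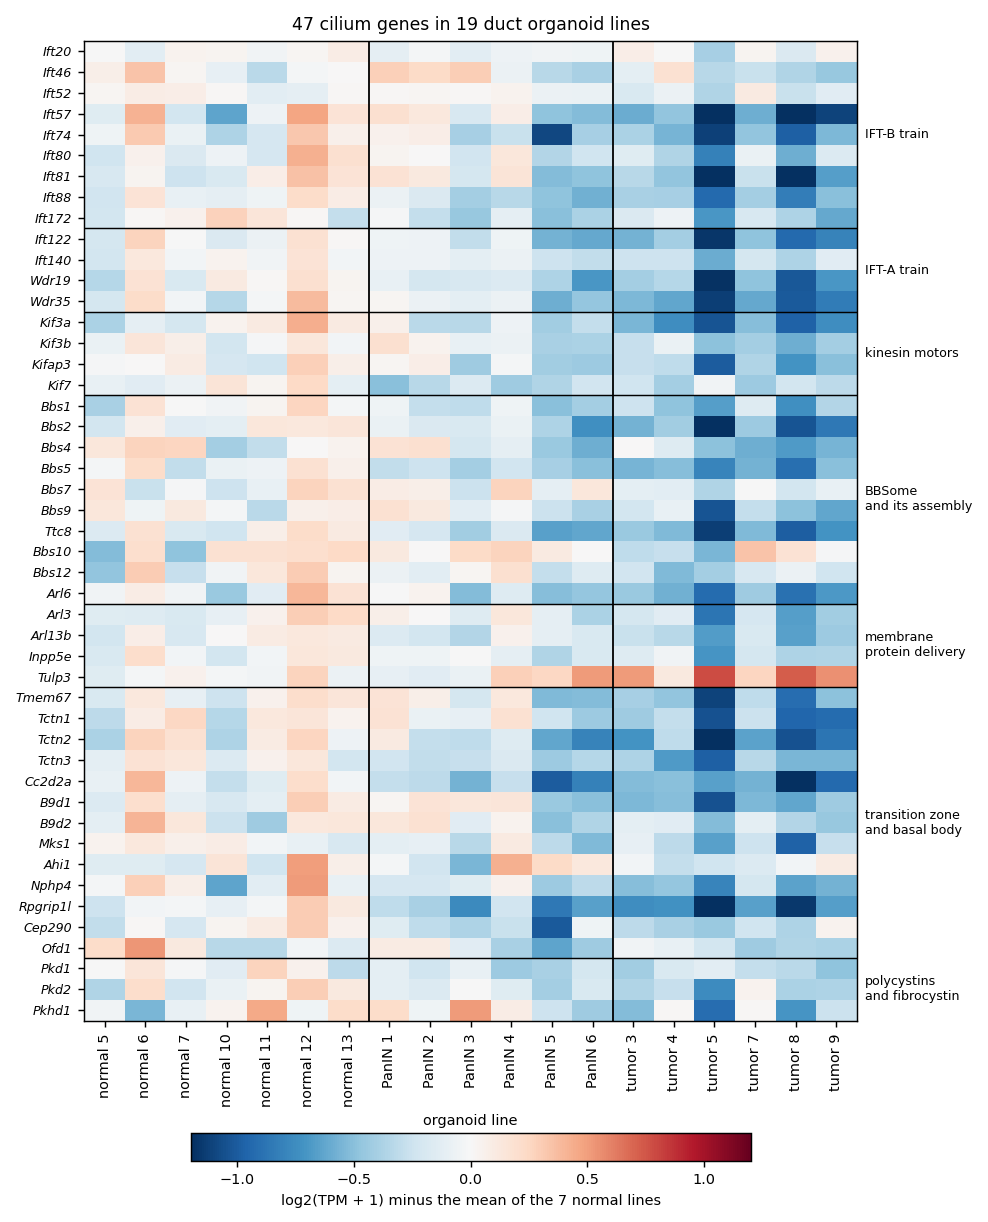
Each row is 1 of the 47 cilium genes, grouped by role, and each column 1 of 19 organoid lines. Colour shows log2(TPM + 1) minus the mean of the 7 normal lines (blue lower, red higher, scale ends at ±1.2). Blue covers most rows in every tumor line and in PanIN lines 5 and 6. By the member median it is deepest in tumor lines 5, 8 and 9 and paler in tumor lines 3, 4 and 7 (-0.32, -0.32 and -0.28). Tulp3 is the row that is red in tumor lines.

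Between tumor and normal lines, cilium genes fell across every role group. Of the 46 tested, 34 were called lower and 1 higher, and 45 had an estimate below 0. Over all 12500 genes, 14.4% were called lower and 17.8% higher. The median log2 change of the members was -0.43, which is 25.9% lower on the TPM + 1 scale, and that of all genes was 0.04. In 16 of the 46 members every tumor line lay below every normal line, which was so for 4.36% of all genes. The drop was moderate in size, with the largest called fall at 1.90-fold.

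The IFT-A particle, needed for return traffic and for entry of membrane proteins, fell as a whole, with all 4 members called. Wdr35 ranged from 18.69 to 31.40 TPM in normal lines (median 23.58), from 15.65 to 24.40 in PanIN lines (median 22.4) and from 10.44 to 16.16 in tumor lines (median 14.1). Every tumor line lay below every normal line, and the log2 change was -0.79 ± 0.13 (SE), or 1.73-fold lower (limma, adjusted p = 0.000508). Ift122 fell from 15.2 ± 1.99 TPM (SD, n = 7) in normal to 8.89 ± 1.92 (n = 6) in tumor lines, and Wdr19 from 9.99 ± 1.41 to 5.92 ± 1.56. Neither overlapped between the groups. Ift140 had the smallest change of the 4, -0.30 ± 0.08, at 9.85 ± 0.937 TPM in normal and 7.81 ± 0.949 in tumor lines.

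Among the 9 members of the IFT-B particle, which drives outward transport, 6 were called lower and 3 were not. Ift57 had the largest change of all members, a log2 difference of -0.93 ± 0.20 (limma, adjusted p = 0.00243). It ranged from 17.51 to 38.87 TPM in normal lines (median 26.5), from 19 to 31.73 in PanIN lines (median 26.7) and from 9.64 to 19.67 in tumor lines (median 15.1), so that normal line 10, at 17.51 TPM, lay within the tumor range. Ift74 and Ift81, which bind each other and tubulin, had log2 changes of -0.67 and -0.75, and Ift88, whose loss abolishes cilia in mice, of -0.58. For Ift74, Ift81 and Ift88 no tumor line reached the lowest normal line. Ift172 (-0.35, adjusted p = 0.0315) and Ift80 (-0.36, adjusted p = 0.0427, both limma) were close to the threshold. The call of Ift172 was lost without any one of normal 10 or 11 or tumor 5, 8 or 9 (adjusted p up to 0.0871). That of Ift80 was lost without any one of normal 6, 10, 12 or 13 or tumor 4, 5 or 8 (adjusted p up to 0.119).

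Ift20, Ift46 and Ift52 were not called. Ift20 ranged from 58.51 to 68.20 TPM in normal lines (median 65.1), from 58.80 to 63.19 in PanIN lines (median 61.7) and from 48.39 to 67.85 in tumor lines (median 64.9). The groups overlapped almost fully, and the log2 change in tumor lines was -0.07 ± 0.07 (limma, adjusted p = 0.449). Ift52 stood at 27.6 ± 1.64 TPM in normal and 24.9 ± 2.92 in tumor lines, and Ift46 at 21.7 ± 3.19 and 18.5 ± 3.28.

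The kinesin-2 motor pairs Kif3a with Kif3b, held by Kifap3, and all 3 of these tested motor genes were called lower. Kif3a ranged from 15.39 to 27.82 TPM in normal lines (median 20.9), from 14.91 to 21.23 in PanIN lines (median 16.2) and from 9.41 to 13.97 in tumor lines (median 11.7). Tumor lines lay below all others, with a log2 change of -0.76 ± 0.12 against normal (limma, adjusted p = 0.000441). Kifap3 changed by -0.53 ± 0.13 with no overlap. Kif3b, which also serves traffic outside cilia, changed by -0.37 ± 0.10 and overlapped. Kif7 was too low to test here. The authors' deposited table gives Kif7 a log2 change of -0.91 in tumor lines (adjusted p = 0.00298) and of -1.01 in PanIN lines (adjusted p = 0.00302).

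Of 10 genes of the BBSome, a coat that carries receptors out of the cilium, and its assembly, 7 were called lower. Bbs5 had the smallest p of all members and ranked 54 of 12500 genes. It ranged from 11.78 to 17.24 TPM in normal lines (median 14.4), from 10.05 to 12.38 in PanIN lines (median 11.3) and from 7.37 to 10.02 in tumor lines (median 9.59). The highest tumor line was below the lowest PanIN line, and tumor lines were lower than normal by a log2 difference of -0.64 ± 0.09, or 1.56-fold (limma, adjusted p = 0.000153). Ttc8, also called Bbs8, ranged from 10.02 to 14.17 TPM in normal (median 12.6), 7.27 to 10.83 in PanIN (median 9.48) and 4.92 to 8.51 in tumor lines (median 7.43). Its normal and tumor lines did not overlap, and it changed by -0.72 ± 0.13 (limma, adjusted p = 0.000722). Bbs2, a core subunit, fell from 10.8 ± 1.23 to 6.07 ± 1.60 TPM, and Arl6, the GTPase that recruits the BBSome to membranes, from 37.1 ± 6.87 to 23.0 ± 3.55.

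Bbs9 and Bbs1 fell by less (log2 changes of -0.46 and -0.44). Bbs4 was called with a log2 change of -0.41 (limma, adjusted p = 0.0429), and that call was lost without any one of normal 5, 6, 7, 12 or 13, PanIN 4 or tumor 5, 7, 8 or 9 (adjusted p up to 0.107). The 3 not called were Bbs7 and the chaperonin-like Bbs10 and Bbs12, which help assemble the BBSome. Bbs10 was at 4.96 ± 1.27 TPM in normal and 4.54 ± 1.28 in tumor lines, Bbs12 at 3.95 ± 0.952 and 3.04 ± 0.448, and Bbs7 at 6.66 ± 1.11 and 5.84 ± 0.572.

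The 4 genes that deliver membrane proteins moved in both directions. Arl3, which releases lipid-modified cargo inside the cilium, ranged from 55.74 to 78.28 TPM in normal (median 59.3), 48.57 to 69.94 in PanIN (median 61.5) and 34.05 to 57.74 in tumor lines (median 50.9). The ranges overlapped, and the log2 change was -0.42 ± 0.12 (limma, adjusted p = 0.0147). Its activator Arl13b fell from 14.97 ± 1.56 to 11.0 ± 1.65 TPM. Inpp5e, the ciliary phosphoinositide phosphatase, changed by -0.31 (limma, adjusted p = 0.0255), a call lost without any one of normal 6 or 13 or tumor 5, 8 or 9 (adjusted p up to 0.0715).

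Tulp3, an adaptor that brings G protein-coupled receptors into cilia with IFT-A, was the only member called higher in tumor lines; it is described in full because of that, a choice made after its values were seen. It ranged from 9.08 to 12.46 TPM in normal lines (median 9.97), from 9.15 to 14.92 in PanIN lines (median 10.9) and from 11.13 to 18.20 in tumor lines (median 15.2). Only normal 12 reached into the tumor range. The log2 change was 0.49 ± 0.12, or 1.41-fold higher (limma, adjusted p = 0.00590). The 3 highest tumor lines for Tulp3 (5, 8 and 9) were also the 3 with the lowest median over all tested members. Without tumor 5 and 8 the log2 change was 0.36 and was not called (adjusted p = 0.0718).

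**Figure D2:**
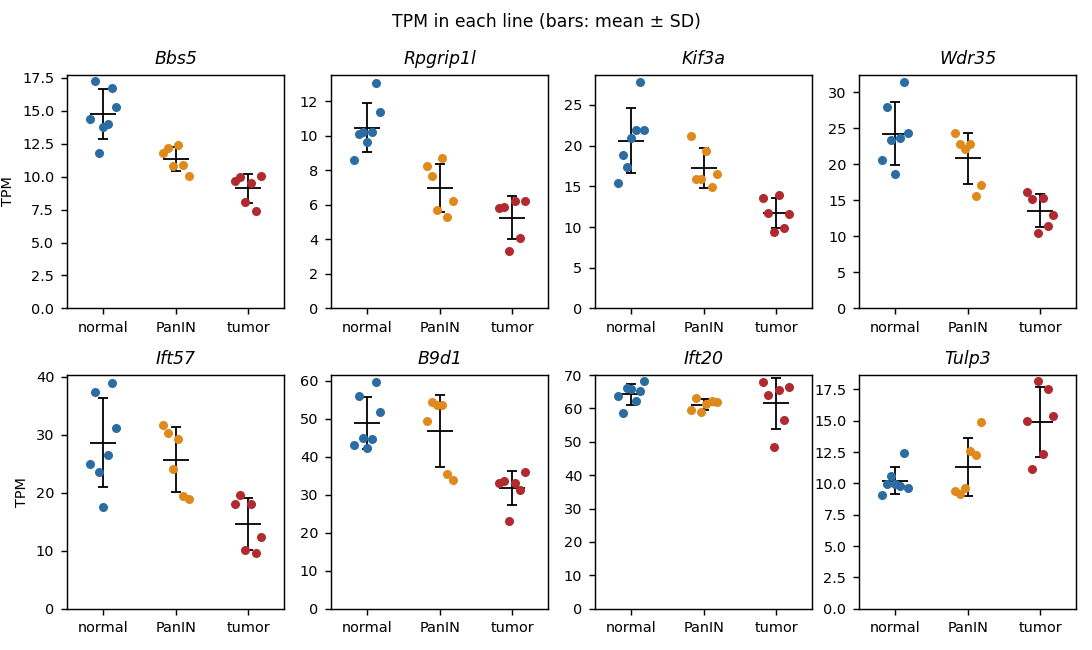
TPM of 8 cilium genes in each line (points), with mean ± SD per group (normal, n = 7; PanIN, n = 6; tumor, n = 6); each vertical axis starts at 0. Bbs5 and Kif3a tumor lines lie below every other line, Ift20 groups overlap, and Tulp3 runs the other way.

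At the transition zone and basal body, 9 of 13 tested members were called lower. Rpgrip1l, a scaffold of the zone, ranged from 8.61 to 13.06 TPM in normal lines (median 10.2), from 5.29 to 8.69 in PanIN lines (median 6.96) and from 3.33 to 6.23 in tumor lines (median 5.85). Its log2 change in tumor lines was -0.89 ± 0.13, or 1.85-fold lower with no overlap (limma, adjusted p = 0.000281). Cc2d2a ranged from 8.82 to 14.74 TPM in normal (median 10.4), 4.99 to 8.85 in PanIN (median 7.86) and 3.42 to 7.44 in tumor lines (median 6.86), a log2 change of -0.77 ± 0.16 (limma, adjusted p = 0.00216).

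The tectonics, partners of these proteins, fell together. Tctn3 ranged from 4.49 to 6.22 TPM in normal (median 5.63), 3.71 to 4.67 in PanIN (median 4.22) and 2.24 to 4.06 in tumor lines (median 3.36), and changed by -0.58 ± 0.10 (limma, adjusted p = 0.000732). Tctn2 changed by -0.81 and Tctn1 by -0.65. B9d1 ranged from 42.43 to 59.77 TPM in normal (median 45.0), 34.03 to 54.58 in PanIN (median 51.5) and 23.06 to 35.93 in tumor lines (median 33.1), and changed by -0.61 ± 0.13 (limma, adjusted p = 0.00226). For Tctn3, Cc2d2a and B9d1 no tumor line reached the lowest normal line. Tmem67, Mks1 and Nphp4, the last at only 1.80 ± 0.676 TPM in normal lines, completed the 9. The 4 not called were Cep290, B9d2, Ofd1 and Ahi1, with log2 changes from -0.29 to -0.11.

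The polycystins Pkd1 and Pkd2 form the receptor-channel mutated in dominant polycystic kidney disease, and Pkhd1 encodes fibrocystin, lost in the recessive form. Pkd1 ranged from 2.31 to 3.96 TPM in normal (median 3.09), 2.04 to 2.86 in PanIN (median 2.52) and 1.94 to 2.76 in tumor lines (median 2.33). Pkd2 ranged from 24.21 to 38.79 TPM in normal (median 32.2), 23.40 to 31.31 in PanIN (median 28.1) and 18.18 to 32.30 in tumor lines (median 24.1). Both overlapped between groups and both were called lower in tumor lines, Pkd1 by a log2 change of -0.30 ± 0.10 (limma, adjusted p = 0.0235) and Pkd2 by -0.35 ± 0.12 (limma, adjusted p = 0.0276). The Pkd1 call was lost without normal 11 or without tumor 9 (adjusted p up to 0.0637). The Pkd2 call was lost without any one of normal 6, 12 or 13 or tumor 5, 8 or 9 (adjusted p up to 0.0792). Pkhd1 ranged from 8.23 to 17.52 TPM in normal (median 12.1), 9.05 to 18.17 in PanIN (median 12.7) and 6.15 to 12.62 in tumor lines (median 9.34). Its change of -0.40 ± 0.18 was not called (limma, adjusted p = 0.0925).

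In all, 29 of the 35 calls between tumor and normal lines held when any one of the 19 lines was left out, and Ift172, Ift80, Bbs4, Inpp5e, Pkd1 and Pkd2 did not. Without tumor 5 and 8 together, 16 members were called lower, against 6.05% of all genes called lower, and 44 of 46 estimates stayed below 0. Rpgrip1l and Wdr35 were called in all 35 other settings tried. For 7 members (Cep290, Inpp5e, Kif7, Ofd1, Pkd1, Tctn1 and Tmem67) an exon overlaps that of a protein-coding gene on the opposite strand in the GENCODE basic annotation. As the strand setting of the counting is not given, their values are uncertain. Overlaps with genes that do not code for protein were not looked for, so other members may be affected too.

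**Figure D3:**
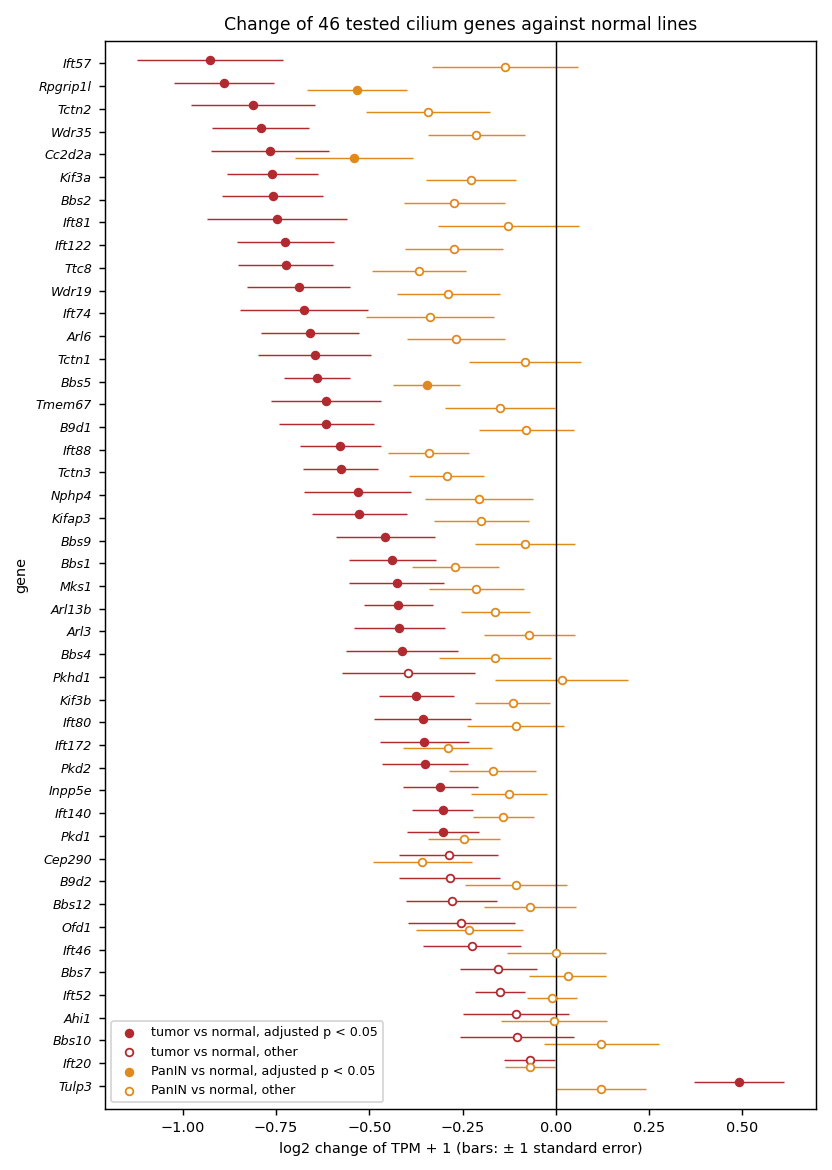
Log2 change of TPM + 1 with ± 1 standard error for the 46 tested cilium genes, tumor (red) and PanIN (orange) lines against normal lines, ordered by the tumor change. Filled points have adjusted p under 0.05: 35 in tumor lines and 3 in PanIN lines. Both series share the normal lines.

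PanIN lines were closer to normal. Of 46 members, 3 were called lower and 0 higher (limma; 11 had an unadjusted p under 0.05 in either direction). Over all genes, 3.68% were called lower and 3.10% higher. The members' median log2 change was -0.17 (all genes -0.03), 41 estimates were below 0, and for 0 of the 46 did every PanIN line lie below every normal line, as was so for 1.79% of all genes. The 3 called were Rpgrip1l (log2 change -0.53 ± 0.13, limma, adjusted p = 0.0207), Bbs5 (-0.35 ± 0.09, adjusted p = 0.0228) and Cc2d2a (-0.54 ± 0.16, adjusted p = 0.0453). In each of them the lowest normal line lay below the highest PanIN line.

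These PanIN calls rested on single lines. Without PanIN 5, Rpgrip1l, Bbs5 and Cc2d2a had adjusted p of 0.0624, 0.0553 and 0.128 in limma, so that none was called. Without normal 6, normal 12 or PanIN 6, only Rpgrip1l was called. Without tumor 5, 5 members were called lower, against 3.89% of all genes. Cc2d2a was also lost without normal 5, 7, 11 or 13, PanIN 3 or tumor 9 (adjusted p up to 0.0682).

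Tumor against PanIN lines gave 3 called lower and 0 higher of 46 (limma; 24 had an unadjusted p under 0.05 in either direction), against 1.21% and 0.392% of all genes. The members' median log2 change was -0.26 (all genes 0.06) and 44 estimates were below 0. Tumor lines lay below every PanIN line for 2 members, Kif3a and Bbs5, and for 0.968% of all genes. The 3 called were Wdr35 (log2 change -0.58 ± 0.13, limma, adjusted p = 0.0392), Kif3a (-0.53 ± 0.13, adjusted p = 0.0419) and B9d1 (-0.54 ± 0.13, adjusted p = 0.0494). Ift57, with the largest difference (-0.79 ± 0.20), missed the threshold at an adjusted p of 0.0520 in limma.

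The tumor against PanIN calls rested on single lines too. Without normal 13, any one of PanIN 1 to 4, or tumor 5, 8 or 9, neither Wdr35, Kif3a nor B9d1 was called (adjusted p up to 0.118, 0.127 and 0.131 in limma). It was 18 without PanIN 6, 17 without tumor 4, 6 without tumor 7 and 5 without normal 11. The shares over all genes moved as well, to 6.79% lower and 15.9% higher without PanIN 6, 5.90% and 13.3% without tumor 4, 2.06% and 1.12% without tumor 7 and 2.20% and 4.07% without normal 11. Most calls over all genes were thus lower with every line and higher without PanIN 6, tumor 4 or normal 11. B9d1 alone was also lost without normal 5, 6, 7 or 10. Over all genes 200 were called with every line, 53 without PanIN 1 and 2836 without PanIN 6.

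The order of the group means was normal above PanIN above tumor for 38 of the 47 members, a description that uses the same normal lines throughout. The share of all genes in that order was not counted. Within PanIN the lines divided. PanIN 1 to 4 had member medians of -0.01, -0.07, -0.20 and -0.07 against the normal mean (log2), whereas PanIN 5 and 6 were at -0.41 and -0.40. In PanIN 5 and 6, 33 and 30 of the 47 members lay below every normal line, against 4 to 16 in PanIN 1 to 4. The share of all genes below every normal line was not counted for single lines, so these counts are descriptions only. The median over all genes was -0.09 in PanIN 5 and 0.05 in PanIN 6. PanIN 5 and 6 thus lay within the tumor range of -0.28 to -0.79, below tumor 3, 4 and 7 (-0.32, -0.32 and -0.28). Without those 2 lines the PanIN median was -0.08, with 30 of 46 estimates below 0.

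Among tumor lines, tumor 5 (-0.79) and tumor 8 (-0.66) had the lowest member medians, and tumor 5 held the lowest value of all 19 lines for 32 of 47 members. Normal 12 held the highest for 24 members and normal 6 for 12. How often these lines were lowest or highest over all genes was not counted. Tumor 5 and 8 were also the lowest lines for the IFT-A group, at -1.14 and -0.97, and for the BBSome group, at -0.72 and -0.71. In tumor 7, Pkd2 (32.30 TPM) and Pkhd1 (12.62 TPM) lay near the normal medians, Pkd1 (2.38 TPM) lay below 6 of the 7 normal lines, and the IFT-A group was at -0.48.

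Genes of cell division were higher in tumor lines. Of 20 proliferation genes, 14 were called higher in tumor than normal lines, against 17.8% of all genes. The median of the 20 against the normal mean was 0.99, 0.95 and 0.84 in tumor 5, 8 and 9, the 3 lines lowest in cilium genes. PanIN 6 (0.64), tumor 7 (0.56) and tumor 3 (0.44) had cilium medians of -0.40, -0.28 and -0.32. Tumor 4 (0.01) and PanIN 5 (0.03) had proliferation genes near the normal mean with cilium medians of -0.32 and -0.41. PanIN 1 to 4 were at -0.31, 0.02, -0.46 and -0.03 for proliferation genes and at -0.01, -0.07, -0.20 and -0.07 for cilium genes. The median of the normal lines was 0.23 for proliferation genes, above their mean. Normal 11 had the lowest proliferation median (-1.11) with a cilium median of -0.03. Whether proliferation plays a part in the cilium gene changes was not tested, nor was the lower ductal or leukocyte marker sum.

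**Figure D4:**
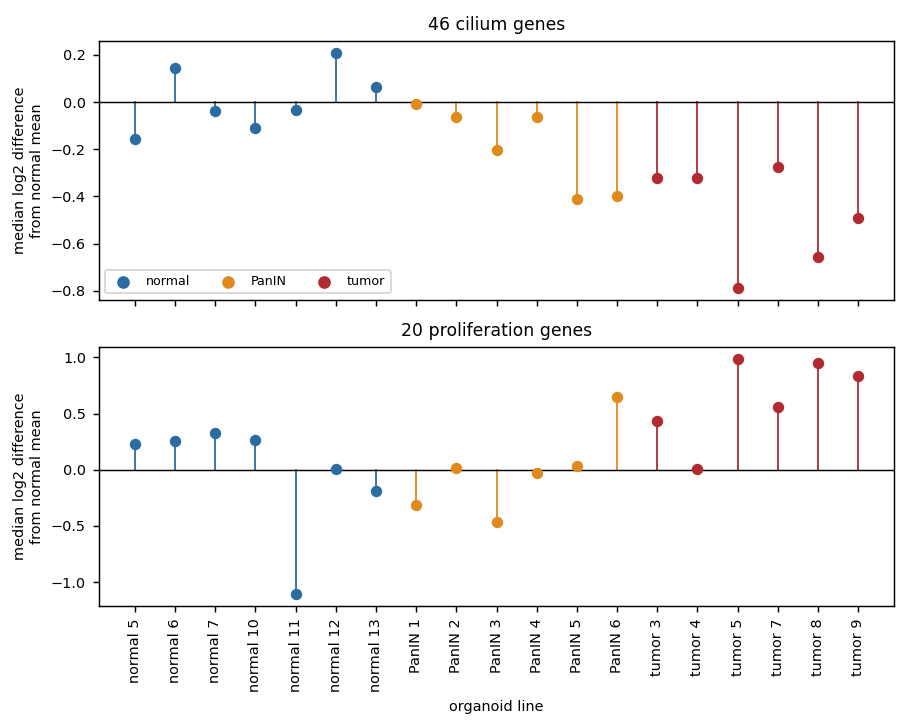
Median log2 difference from the mean of the 7 normal lines in each organoid line, for 46 cilium genes (top) and 20 proliferation genes (bottom). Tumor lines lie between -0.79 and -0.28 for cilium genes, and PanIN 5 and 6 are near -0.40. Tumor 5, 8 and 9 are lowest for cilium genes and highest for proliferation genes, and tumor 4 has low cilium genes with proliferation genes near 0.

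Within each identifier series the members' median in tumor against normal lines stayed below 0: -0.32, -0.53 and -0.49 in log2, with 41, 44 and 44 of 46 estimates below 0, although the first series holds 1 tumor line. The PanIN difference varied between series. Its median was -0.06 and 0.06 in the first and second (the second with 1 PanIN line) and -0.55 in the third. In turn, 32, 19 and 45 of 46 estimates were below 0. The third series holds PanIN 5 and 6, labelled male, and normal 12 and 13, labelled female. Sex and group thus cannot be told apart in its PanIN difference. With the series as a term in the fit, the PanIN median was -0.19 and 4 members were called lower, against 4.90% of all genes. Tumor against PanIN was -0.20, -0.58 and -0.01.

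Other genes of the pathway were taken from lists made by function, with earlier results of these data known. The shares over all genes to set beside their counts are 14.4% lower and 17.8% higher. Of 14 further IFT and dynein-2 genes tested, 10 were called lower in tumor than normal lines and 0 higher (limma; 10 had an unadjusted p under 0.05). Wdr60, a dynein-2 intermediate chain, fell from 8.37 ± 1.38 TPM (SD, n = 7) to 4.95 ± 0.645 (n = 6), the light intermediate chain Dync2li1 from 50.3 ± 9.18 to 27.0 ± 8.15, and the IFT-B members Rabl5 and Ttc26 from 46.3 ± 6.28 to 27.2 ± 6.18 and from 14.1 ± 2.44 to 8.44 ± 1.92. Of 11 further transition zone genes, 4 were called lower, among them Tmem231, a membrane protein of the zone (13.9 ± 2.16 to 7.33 ± 2.05 TPM). Of 11 further BBSome and delivery genes, 4 were lower and 1 higher. Lztfl1, a regulator of BBSome traffic, had a log2 change of -0.87 and Rpgr, a guanine exchange factor-like protein at the transition zone, of -1.03, whereas Rab3ip (Rabin8), which activates Rab8 at the start of cilium growth, rose by 0.41.

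Among genes that start or end a cilium, calls went in both directions, as they did over all genes (14.4% lower, 17.8% higher). The counts of these short lists are descriptions only. Of 17 centriole appendage and ciliogenesis genes, 5 were called lower and 1 higher. Ttbk2, the kinase that licenses outgrowth, fell from 7.38 ± 2.23 to 3.99 ± 0.721 TPM, Mak from 5.98 ± 1.67 to 2.29 ± 1.38, and Cep164, a distal appendage protein, by a log2 change of -0.25. Ick, a relative of Mak and likewise a kinase that limits cilium length, rose from 12.4 ± 1.09 to 16.4 ± 1.22 TPM. Of 7 disassembly genes, Kif2a (7.07 ± 0.734 to 8.89 ± 0.515 TPM) and Aurka (41.5 ± 15.3 to 66.9 ± 18.9 TPM), the mitotic kinase that triggers cilium loss, rose, and Nedd9, its scaffold, fell from 46.99 ± 8.05 to 29.5 ± 7.57 TPM. Aurka is also a gene of cell division.

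The RFX factors, which bind the X-box, had 0 of 5 tested genes called (limma, 0 with an unadjusted p under 0.05). Their log2 changes ran from -0.21 (Rfx3, 3.18 ± 0.499 TPM in normal and 2.63 ± 0.592 in tumor lines) to 0.18 (Rfx1). Members with a letter match to the single form had a median log2 change of -0.55 in tumor lines, with 15 of 18 called lower. Those with a window but no single form had a median of -0.38, with 15 of 24 tested called lower. With the paired form the median was -0.44 (7 of 9 called lower) and without it -0.42 (23 of 33). These are descriptions with no test of the difference. Rpgrip1l, Ttc8, Bbs2 and Cc2d2a, among the largest falls, had neither form in the window.

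Of the hedgehog pathway, which signals through the cilium, 3 of 9 genes passed the filter. Smo, the ciliary signal transducer, fell from 26.2 ± 3.40 to 19.9 ± 2.61 TPM (log2 change -0.37), and the receptor Ptch1 stood at 7.48 ± 2.31 and 8.26 ± 1.84 TPM. The target gene Gli1 was listed at 0 in every normal and PanIN line and at 0.03 TPM or less in tumor lines.

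Transcripts of motile cilia, which beat and use further parts, were also present. Of 16 such genes listed, 10 were in the table and 6 were tested. Of these 6, 5 were called lower in tumor than normal lines, against 14.4% of all genes. The genes in the table that were not tested stayed low in every line. Ccno reached at most 0.19 TPM, Hydin 0.11, and the dynein arm genes Dnaic1 and Dnaic2 0.1 and 0.36. Foxj1, the master regulator of motile cilia, stood at 87.5 ± 29.5 TPM in normal, 126 ± 31.8 in PanIN and 45.4 ± 28.2 in tumor lines. Spag6, of the axoneme's central pair, stood at 6.72 ± 2.52, 7.22 ± 2.90 and 2.19 ± 1.404 TPM, and Rsph1, of the radial spokes, at 10.0 ± 2.42, 10.2 ± 3.46 and 4.45 ± 1.64. The 10 genes in the table summed to 53.99 to 149.46 TPM in normal, 117.37 to 216.53 in PanIN and 14.63 to 100.63 in tumor lines, with every PanIN sum above every tumor sum. Foxj1 made up most of these sums (99.59 TPM or more in PanIN and 88.20 or less in tumor lines), and Rsph1 and Spag6 overlapped between PanIN and tumor lines. Motile cilia use the same transport genes, and their part in the changes of the members was not tested.

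**Figure D5:**
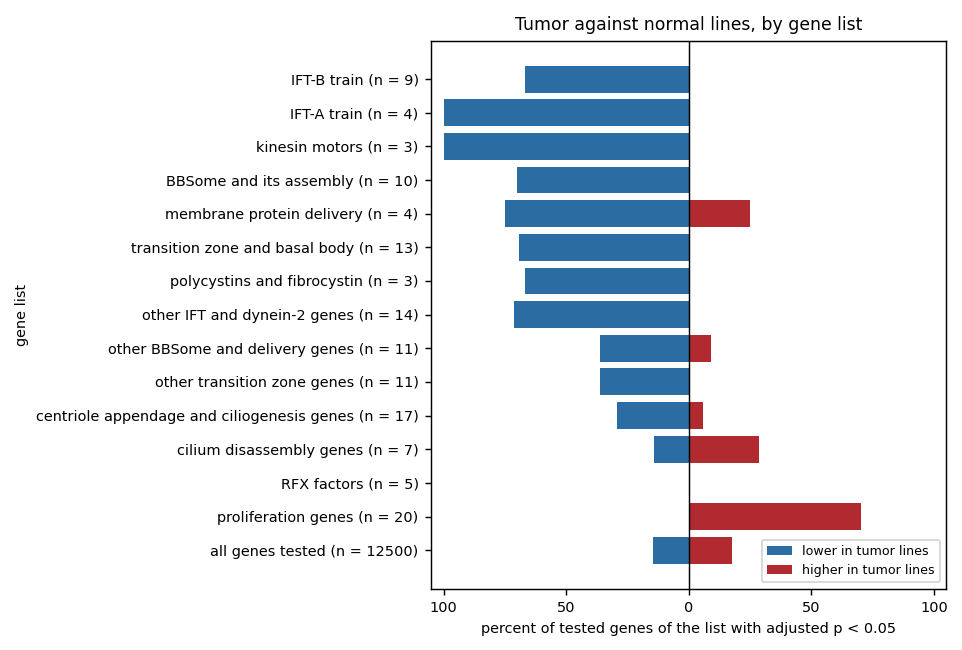
Percent of tested genes in each list called lower (blue, to the left) or higher (red, to the right) in tumor than normal lines at adjusted p under 0.05; n is the number tested. Bars of all 7 role groups extend to the left well past the 14.4% of all genes, RFX factors have no bar, and proliferation genes extend to the right.

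In the authors' deposited table of their own comparisons, 39 of the 47 members had an adjusted p under 0.05 and a lower value in tumor than normal lines and 1 a higher value, where 16.4% of all genes with an adjusted p were lower. Against PanIN lines the authors' deposited table gives 20 members lower in tumor lines and 0 higher (6.55% of all genes lower), and in PanIN against normal lines 4 lower and 0 higher (4.94%). In the authors' deposited table Pkhd1, not called here, has a log2 change of -0.60 in tumor against normal lines with an adjusted p of 0.0204.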

How the data were processed

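RNA of 19 mouse duct organoid lines (7 normal, 6 PanIN, 6 tumor) was sequenced; per the labels' protocols, strand-marking libraries were made from total RNA after removal of ribosomal RNA. The authors deposited 1 table with TPM per line. The submitters' processing notes name the mm9 build, Bowtie 1.1.0, RSEM 1.2.11, FastQC, DESeq and DESeq2 1.4.1; the annotation and the strand setting of the counting are not given in the sources used here. The deposited table also holds, per the file headers, a mean signal per gene (a base mean), the authors' log2 fold change and its standard error, a test statistic (a score per gene) and p-values with adjusted p-values. TPM is scaled to 1 total, so a fall of abundant transcripts raises all others.

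Here log2(TPM + 1) was fitted with limma 3.58.1 (R 4.3.3), with 1 mean per group over all 19 lines, eBayes with trend, two-sided, and Benjamini-Hochberg adjustment over the 12500 genes with at least 1 TPM in at least 6 lines, within each contrast. The fit was tested on simulated data. Group values are mean TPM ± SD, and fold changes are of TPM + 1, which understates them at low levels. The rule for the members uses symbols only, but the members and the gene lists were chosen with earlier results of these data known. The lowest, median and highest line of each group are given for the called members with the smallest p of each contrast (up to 6), the 3 most abundant members and the polycystin and fibrocystin genes, and also for Ift57 and Tulp3, chosen after their values were seen; of other lists, up to 4 genes with the smallest p are named. Promoter windows were read from RefSeq (GRCm38.p6), a build other than that of the table, and matched by symbol. Alternatives were other pseudocounts, filters, scalings, limma settings, an added term for identifier series or sex, the replicate block, and leaving out lines; leaving out tumor 5 and 8, PanIN 5 and 6, or all 4 was chosen after the data were seen. Columns of other samples numbered 0. Part of the genotypes and of the listed genes is not reported here.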

Additional observations from a re-analysis of the deposited data

Results flagged for a closer look

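Of 141 sets of values (47 members in 3 groups), 1 had a line far from the rest, or 0.709%, where chance alone flags about 1 in 20. B9d1, a transition zone protein, stood at 23.06 TPM in tumor 5, with the next lowest tumor line at 31.17. That gap was 0.630 of the tumor range, just past the critical value of 0.625 for 6 lines. Without tumor 5, as without any other single line, B9d1 was called lower in tumor than normal lines (limma, adjusted p at most 0.00652).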

How the results depend on the processing

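The members' fall between tumor and normal lines kept its direction in all 35 settings tried besides the one reported, and no median change or called member turned its direction. The identifier series, pseudocount, sex, filter and scaling alternatives left its count within 1.5 times of 35. Rescaling without the 11 rows that lack an authors' comparison moved the split of all calls between tumor and normal lines from 44.9% lower to 62.3% lower, with 36 members called lower and 1 higher. Median-of-ratios scaling moved the split of all calls between PanIN and normal lines from 54.3% to 43.3% lower. The split of all calls between tumor and PanIN lines, 75.5% lower, was 29.9% lower without PanIN 6, 30.8% without tumor 4, 35.1% without normal 11 and 36.2% without PanIN 5 and 6. With 1 line left out at a time, members called ranged from 0 to 5 for PanIN against normal, 30 to 36 for tumor against normal and 0 to 18 for tumor against PanIN. The same ranges over all genes were 496 to 893, 2657 to 4860 and 53 to 2836, and of the members' median log2 change -0.21 to -0.13, -0.49 to -0.38 and -0.31 to -0.23. For PanIN against normal, 847 genes were called in all, 535 with the filter at 5 TPM, 312 without PanIN 5 and 6 and 380 without PanIN 5 and 6 and tumor 5 and 8. Members called in that comparison were 5 without tumor 5 and 8, 0 without PanIN 5 and 6 and 1 without all 4. For tumor against normal, members called were 16 without tumor 5 and 8 and 23 without all 4, and all genes called 1373 and 1887 against 4024. For tumor against PanIN, members called were 0 with no filter, 5 with median-of-ratios scaling, 5 with quantile normalization, 1 with only the 2 groups fitted, 0 with identifier series as a term, 0 without tumor 5 and 8 and 23 without PanIN 5 and 6. All genes called there were 200, and 93 with no filter, 130 with the filter at 5 TPM, 333 with quantile normalization, 97 with only the 2 groups, 65 with identifier series as a term, 29 without tumor 5 and 8 and 2718 without PanIN 5 and 6. The cause of these shifts was not tested. Where lines were left out, fewer lines were fitted.

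Lines of different groups share some numbers, and the labels name no shared mouse. Correlations of same-numbered lines' deviations ran from -0.31 to 0.25. No other pairs are set beside them, so they cannot show whether a shared number means a shared mouse. With the number as a replicate block, which leaves only the lines with a shared number to inform each difference, members called were 2 for PanIN against normal, 3 for tumor against normal and 0 for tumor against PanIN, and all genes called 258, 225 and 8. The PanIN median was then -0.36. Read depth behind the TPM values is unknown, so for low members such as Kif7 and Nphp4 counting error cannot be separated from the spread between lines.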
